A study of Homo sapiens with 8 samples.

Results

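The genes described here encode 9 cell surface proteins that receive Wnt or R-spondin signals beside the Frizzled receptors: LRP5, LRP6, LGR4, LGR5, LGR6, ROR1, ROR2, RYK and PTK7. They were chosen by name as co-receptors of Wnt signalling, the pathway in the study's title, and the rule uses no measured value. All 9 were found among the 22395 genes of the array, each through 1 probe set with a single gene symbol. The study profiled the RNA of 4 cell lines grown from human prostate cancer, 48 hours after transfection with siRNAs against DNAPK (siDNAPK, "si7DNAPK" in the labels) or with non-targeting siRNAs (siNTC). DNAPK is the DNA-dependent protein kinase, an enzyme of DNA end joining whose catalytic subunit is the product of PRKDC. C4-2B descends from LNCaP, and the other lines were likewise established from metastases of prostate cancer. Each line gave 1 siNTC array and 1 siDNAPK array, 8 in all, and every group below is therefore a single array of 1 line and 1 siRNA treatment. C4-2B and PC3 were grown in RPMI1640 and DU145 and VCaP in DMEM, so that medium and line cannot be told apart.

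Wnt ligands bind a Frizzled receptor together with LRP5 or LRP6, single-pass receptors whose phosphorylated tails draw Axin to the membrane and so stabilise beta-catenin. LGR4, LGR5 and LGR6 are seven-helix receptors for R-spondins, which raise the amount of Frizzled and LRP at the surface by holding back the ubiquitin ligases RNF43 and ZNRF3. LGR5 is also a marker of intestinal stem cells and a target gene of beta-catenin. ROR1, ROR2, RYK and PTK7 are receptor tyrosine kinases or kinase-like receptors that serve mainly the arms of the pathway that do not need beta-catenin, among them planar cell polarity and the response to WNT5A.

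Promoter windows are shown for LGR4, whose level spanned the widest range among the members that have a window in the table, and for ROR1 and PTK7, which had the same order of the 4 lines. Each window runs from 250 bases before to 50 bases after a RefSeq transcription start (GRCh38.p14) and is written 5′ to 3′ as RefSeq gives it for the gene. LGR4 lies on the minus strand at chr11:27472741-27473040, ROR1 on the plus strand at chr1:63773767-63774066, and the first of 2 windows of PTK7 on the plus strand at chr6:43076064-43076363. Capitals mark CCAAT boxes (CCAAT) and GC boxes (GGGCGG) on either strand.
LGR4: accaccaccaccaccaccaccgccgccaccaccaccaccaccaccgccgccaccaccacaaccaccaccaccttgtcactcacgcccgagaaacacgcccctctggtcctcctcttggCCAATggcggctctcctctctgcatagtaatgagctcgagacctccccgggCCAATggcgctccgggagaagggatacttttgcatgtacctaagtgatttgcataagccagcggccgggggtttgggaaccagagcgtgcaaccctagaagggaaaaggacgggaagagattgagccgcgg
ROR1: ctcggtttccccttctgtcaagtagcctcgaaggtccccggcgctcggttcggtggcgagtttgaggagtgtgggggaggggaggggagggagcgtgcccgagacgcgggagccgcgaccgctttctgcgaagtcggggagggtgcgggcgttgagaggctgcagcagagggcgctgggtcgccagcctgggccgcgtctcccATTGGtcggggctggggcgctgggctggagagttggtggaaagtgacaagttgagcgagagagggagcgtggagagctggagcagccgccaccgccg
PTK7: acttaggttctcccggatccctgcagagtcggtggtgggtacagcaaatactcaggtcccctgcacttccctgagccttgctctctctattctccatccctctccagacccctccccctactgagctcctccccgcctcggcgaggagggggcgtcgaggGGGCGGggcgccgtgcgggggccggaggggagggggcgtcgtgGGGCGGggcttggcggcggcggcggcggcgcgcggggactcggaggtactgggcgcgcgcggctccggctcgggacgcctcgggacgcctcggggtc

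The LGR4 window held 2 CCAAT boxes and no GC box, the ROR1 window 1 CCAAT box on the minus strand, and this PTK7 window 2 GC boxes and no CCAAT box, so the pair with the same line order shared neither motif. Over all 35116 windows of the table, 34.6% held a CCAAT box and 45.0% a GC box. A TATA box (TATAAA, in 11.5% of all windows) and the core of a TCF/LEF site (CTTTGA, in 12.9%) were searched on both strands too and had no match in the windows of the 7 members that have one. The 7 members differed widely in base composition. The GC content was 86.7% in the LRP5 window, 79.7% for ROR2, 73.0% for RYK, 69.0% for ROR1 and 61.3% for LGR4. The 2 windows of PTK7 had 73.3% and 68.7%, and the 3 windows of LGR6 had 49.7% to 55.3%. The median over all windows was 58.7%. A match is a run of letters and not a shown binding site.

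The values are log2 signals after RMA (robust multi-array average, which makes the distributions of the arrays alike), and all 9 members had a mean above the filter of 2.51, the 25th percentile of gene means. PRKDC, the targeted gene, kept 65.0% of its siNTC signal in VCaP, 47.2% in DU145, 25.1% in PC3 and 17.4% in C4-2B. ERG read 8.57 and 8.65 on the arrays of VCaP, a line known for its TMPRSS2-ERG fusion, and at most 3.56 elsewhere. KLK3, the PSA gene, read 10.12 and 10.24 in C4-2B but only 4.46 and 4.75 in VCaP, a line known to make PSA. The epithelial genes EPCAM and CDH1 lay between 8.84 and 10.46 on all arrays, while KRT8 and KRT18 lay between 3.58 and 5.47. Of 8 markers of immune, endothelial and stromal cells 6 were measured, with summed log2 signals of 16.2 to 20.1 per array. Of these, 4 lay above the filter level in C4-2B and 2 in each other line. The leukocyte gene PTPRC and the fibroblast gene DCN were at most 2.02, but the T cell gene CD3E read 2.95 and 2.55 and the endothelial gene VWF 2.89 and 3.06 in C4-2B, and COL1A1 read 3.63 to 5.06 over all arrays. CD68, a macrophage marker that other cells express too, read 7.06 to 7.94 in DU145 and PC3 and at most 5.04 in C4-2B and VCaP, the split that ROR1 and PTK7 have below, and its part in that was not tested. Fewer cells that express a gene and less RNA per cell cannot be told apart in such bulk samples.

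LRP5 and LRP6, the co-receptors that act with Frizzled, had different line orders. LRP6 read 8.50 (siNTC) and 8.20 (siDNAPK) in DU145 and 8.60 and 8.06 in VCaP, against 7.29 and 7.30 in C4-2B and, lowest, 7.02 and 7.09 in PC3. Each DU145 and VCaP array thus lay above each C4-2B and PC3 array, and the ranges of DU145 and VCaP overlapped. In a limma fit of line with treatment as a covariate, the line means spanned 1.30 on the log2 scale, a 2.46-fold range (F test over lines, adjusted p = 0.00131). All 4 contrasts between DU145 or VCaP and C4-2B or PC3 passed, with adjusted p between 0.00174 and 0.00501, while DU145 and VCaP differed by 0.02 (adjusted p = 0.941) and C4-2B and PC3 by 0.24 (adjusted p = 0.386).

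LRP5 read 7.46 and 7.48 in PC3, 7.11 and 6.80 in DU145, 6.68 and 6.69 in C4-2B and 6.22 and 6.86 in VCaP. PC3 was the highest line, and the VCaP pair spread across the values of C4-2B and into those of DU145. The line means spanned 0.92 (limma F test, adjusted p = 0.0341). Of the neighbours in this order none differed past the threshold: PC3 and DU145 had an adjusted p of 0.126, DU145 and C4-2B 0.414, and C4-2B and VCaP 0.679. PC3 was higher than C4-2B by 0.78 (adjusted p = 0.0328) and than VCaP by 0.92 (adjusted p = 0.0170).

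Among the R-spondin receptors, LGR4 and LGR5 had the widest spans of all members, and their high lines were not the same. LGR4 read 8.30 and 8.89 in VCaP, 7.86 and 7.66 in DU145, 6.99 and 6.83 for PC3 and, lowest, 6.20 and 6.39 for C4-2B. No 2 lines overlapped. The line means spanned 2.30, a 4.92-fold range (limma F test, adjusted p = 3.41e-04), and 5 of 6 line contrasts passed, including VCaP over DU145 by 0.84 (adjusted p = 0.0210) and DU145 over PC3 by 0.85 (adjusted p = 0.0193). PC3 and C4-2B, the lowest, differed by 0.61 and did not pass (adjusted p = 0.0657).

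LGR5 read 6.39 (siNTC) and 6.24 (siDNAPK) in PC3. It read 3.01 and 2.80 in VCaP, 2.51 and 2.17 in C4-2B, and for DU145 2.32 and 2.25. The gene thus stood high in 1 line of 4, and in DU145 and on both C4-2B arrays it lay below the filter level. PC3 exceeded VCaP, the next line, by 3.41 ± 0.16 (SE of the limma fit), a 10.6-fold difference in signal (adjusted p = 6.54e-06). No fold is given against C4-2B and DU145, whose signals lay below the filter level. The gene passed the filter only through PC3, since the mean over the other lines was 2.51, under the level, and a gene that passes in this way had to differ between lines. VCaP was also above C4-2B by 0.57 (adjusted p = 0.0252), a difference between signals near the filter level. C4-2B and DU145 overlapped (adjusted p = 0.843).

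LGR6, the third R-spondin receptor, stayed between 2.56 and 3.37 on all arrays, close to the filter level. Its highest and lowest siNTC arrays were those of DU145 (3.37) and C4-2B (2.56). The lines did not differ past the threshold (limma F test, adjusted p = 0.158), and 0 of its 6 line contrasts passed.

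ROR1, a receptor for WNT5A, and PTK7, a kinase-like receptor without catalytic activity, shared the order PC3, DU145, VCaP, C4-2B. ROR1 read 7.28 and 7.51 in PC3, 7.26 and 7.10 in DU145, 6.76 and 6.03 in VCaP and 5.85 and 5.70 in C4-2B. All 4 PC3 and DU145 arrays lay above all 4 VCaP and C4-2B arrays. The line means spanned 1.62, a 3.08-fold range (limma F test, adjusted p = 0.00188). DU145 was above VCaP by 0.79 (adjusted p = 0.0311), whereas PC3 and DU145 (adjusted p = 0.514) and VCaP and C4-2B (adjusted p = 0.0719) did not differ past the threshold.

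PTK7 read 5.45 and 5.32 in PC3, 4.99 and 5.01 in DU145, 4.59 and 4.63 in VCaP and 4.34 and 3.75 in C4-2B, again with PC3 and DU145 above the other lines and no overlap between any 2 lines. The line means spanned 1.34, or 2.53-fold (limma F test, adjusted p = 0.00323). No step between neighbours passed, with adjusted p of 0.175, 0.169 and 0.0579 from the top, but PC3 exceeded VCaP by 0.77 (adjusted p = 0.0185) and C4-2B by 1.34 (adjusted p = 0.00156), and DU145 exceeded C4-2B by 0.96 (adjusted p = 0.00737). Over the 8 arrays the Pearson correlation of ROR1 with PTK7 was 0.904, the highest of the 36 member pairs. It describes 4 lines with 2 arrays each, whose values share a culture line and a normalisation.

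ROR2, the paralog of ROR1, did not follow it. It read 3.60 and 3.34 in C4-2B, 3.33 and 2.94 for DU145, 3.14 and 3.14 for VCaP and 3.03 and 2.56 for PC3, so no signal exceeded 3.60, and the lowest line was the one in which ROR1 was highest. The lines did not differ past the threshold by the F test (limma, adjusted p = 0.0519), although the single contrast of C4-2B with PC3 passed (0.68, adjusted p = 0.0189). RYK, a receptor with an inactive kinase domain that binds Wnt through its extracellular part, was the most even of the members with a signal well above the filter level. It read 8.13 and 8.10 in VCaP, 7.82 and 7.73 in C4-2B, 7.62 and 7.78 for DU145 and 7.64 and 7.58 for PC3. Its line means spanned 0.50 (limma F test, adjusted p = 0.0843), and of its line contrasts VCaP over PC3 passed (0.50, adjusted p = 0.0395).

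**Figure D1:**
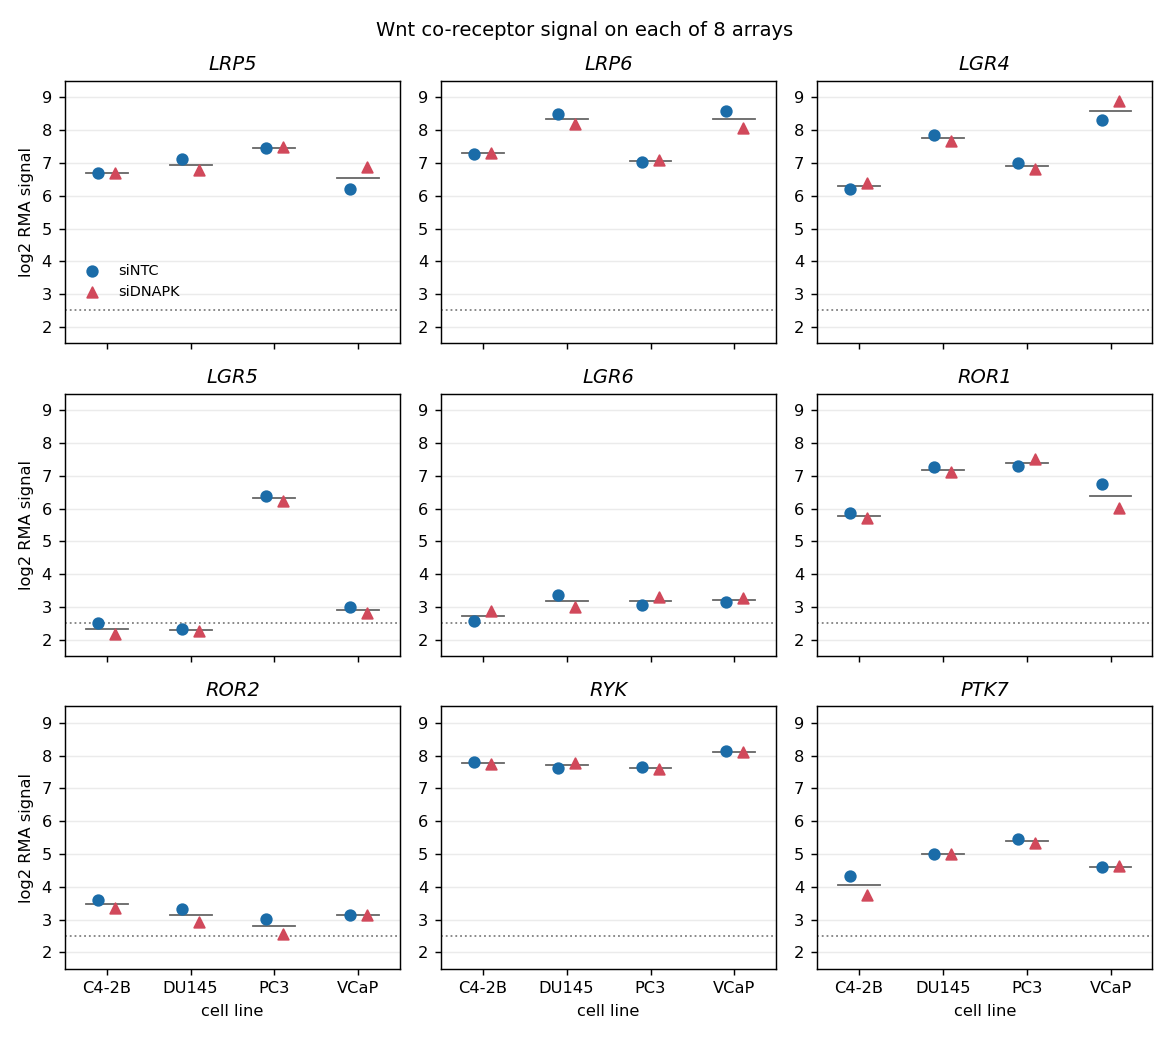
Log2 RMA signal (vertical axis) of each Wnt co-receptor gene in the 4 cell lines (horizontal axis), with a circle for the siNTC array, a triangle for the siDNAPK array, a bar for the mean of both and a dotted line at the filter level of 2.51. LGR5 stands at 6.39 and 6.24 in PC3 and at 3.01 or lower elsewhere, LGR4 and LRP6 are high in DU145 and VCaP, and LGR6 and ROR2 stay near the dotted line.

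In all, 6 of the 9 members (66.7%) differed in level between the lines, against 62.6% of the 16796 genes tested, and 25 of 54 member line contrasts passed (46.3%), against 36.5% over all genes and the 6 contrasts. Of the single contrasts, 4 of 9 members passed for C4-2B against DU145 (34.9% of all genes), 5 for C4-2B against PC3 (36.2%), 3 for C4-2B against VCaP (35.1%), 3 for DU145 against PC3 (32.0%), 3 for DU145 against VCaP (40.5%) and 7 for PC3 against VCaP (40.1%). The members' count by the F test, which includes LGR5, was thus close to the background of these lines. A span of at least 1 was found for 5 of 9 members (55.6%) against 44.9% of all genes, and the median span was 1.30 against 0.91. LGR5, which passed the filter only through PC3, gave 5 of the 25 contrasts that passed. It is also part of the span count and the median. The higher shares of the members thus rest in part on a gene that had to differ between lines. LRP6 and LGR4 (2 of 9, 22.2%) had no overlap between the arrays of DU145 and VCaP, the lines grown in DMEM, and those of C4-2B and PC3, grown in RPMI1640. Such a split was found in 11.4% of all genes, and was looked for after the values were seen. ROR1 and PTK7 (22.2%) had none between DU145 with PC3 and VCaP with C4-2B, a split found in 20.7% of all genes. The arrays of a line differed in siRNA treatment and each line was grown once per treatment as far as the labels say, so these p-values measure how well the line pattern held over both treatments and not the spread between cultures.

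The response to DNAPK siRNA, as siDNAPK minus siNTC within each line, was below 2-fold for every member in every line. By limma with the line as a block, 0 of 9 members passed at an adjusted p of 0.05, as did 0% of the 16796 genes, and 0 of 9 had an unadjusted p under 0.05 against 7.19% of all genes. Past 1 on the log2 scale (2-fold), 0 of 9 members lay in any line, where the share of all genes past it was 3.7% for VCaP, 1.12% for DU145, 1.07% for PC3 and 0.583% for C4-2B. The median of the members' mean differences was -0.17, against 0.03 over all genes, and 6 of 9 members (66.7%) had a mean below 0 against 43.6% of all genes. LGR5, ROR1, ROR2 and RYK (44.4%) were below 0 in at least 3 lines, against 26.8% of all genes. Above 0 were 4 of 9 members for C4-2B (57.1% of all genes), 2 for DU145 (56.9%), 4 for PC3 (55.5%) and 5 for VCaP (49.7%). Some of these values lay so near 0 that the scaling set their sign: the counts were 3, 1, 4 and 4 with median centring and 2, 1, 3 and 5 with cyclic loess.

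LRP5 had differences of 0.64 in VCaP, 0.02 in PC3, -0.31 in DU145 and 0.0037 in C4-2B, which leaves a mean of 0.09 ± 0.40 (SD, n = 4 lines; limma, adjusted p = 0.904). LRP6 had -0.53, 0.08, -0.30 and 0.02 in the same order, with a mean of -0.19 ± 0.29 (adjusted p = 0.757). In VCaP the paralogs therefore lay on opposite sides of 0, with LRP5 at 156% and LRP6 at 69.0% of the siNTC signal, while in DU145 both were near 80% (80.5% and 81.0%) and in C4-2B and PC3 both stayed within 0.08 of 0. Without VCaP the mean of LRP5 was -0.10, on the other side of 0, and that of LRP6 was -0.07.

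LGR4 had 0.19 in C4-2B and 0.59 in VCaP but -0.19 in DU145 and -0.16 in PC3, and a mean of 0.11 ± 0.37 (limma, adjusted p = 0.874) that became -0.06 without VCaP. It was the only member (11.1%) with 1 sign in C4-2B and VCaP and the other in DU145 and PC3, a pattern present in 10% of all genes. The mean response of C4-2B and VCaP exceeded that of DU145 and PC3 by 0.57 (limma 95% interval -0.05 to 1.19, adjusted p = 0.991). LGR5 had 1 sign in all lines (1 of 9 members, 11.1%, against 17.4% of all genes; with median centring of the arrays ROR2 had too), at -0.34 (C4-2B), -0.21 (VCaP), -0.14 (PC3) and -0.07 (DU145). Its mean was -0.19 ± 0.12 (SD, n = 4 lines; limma 95% interval -0.45 to 0.07, adjusted p = 0.715), and only the PC3 value comes from signals well above the filter level. LGR6 had 0.33, -0.36, 0.27 and 0.14 in C4-2B, DU145, PC3 and VCaP, all from low signals, with a mean of 0.09 ± 0.31 (adjusted p = 0.882) that ranged from 0.015 without C4-2B to 0.24 without DU145 and was 0.0354 without PC3.

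ROR1 had 0.23 in PC3 but -0.15 and -0.16 in C4-2B and DU145, and -0.73 in VCaP, where its signal went from 6.76 to 6.03, or 60.3% of the siNTC level. That was the largest difference of any member in any line, and 10% of all genes had a larger one in VCaP. The mean of -0.20 ± 0.40 (SD, n = 4 lines; limma, adjusted p = 0.769) rested on that line and was -0.03 without it. ROR2 had -0.46, -0.40, -0.26 and 0.0021 in PC3, DU145, C4-2B and VCaP, all from low signals. Its mean of -0.28 ± 0.21 was the farthest from 0 among the members, with a limma 95% interval from -0.57 to 0.0094 (adjusted p = 0.688).

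RYK had -0.09, 0.16, -0.06 and -0.04 in C4-2B, DU145, PC3 and VCaP. Its mean was -0.0054 ± 0.12 (SD, n = 4 lines; limma, adjusted p = 0.992), with a 95% interval from -0.26 to 0.25. PTK7 had -0.59 in C4-2B, where it went from 4.34 to 3.75 (66.4% of siNTC), and 0.02, -0.13 and 0.04 in DU145, PC3 and VCaP. In C4-2B, 4.98% of all genes had a larger difference than PTK7. The mean of PTK7 was -0.17 ± 0.29 (adjusted p = 0.776), and -0.02 without C4-2B.

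**Figure D2:**
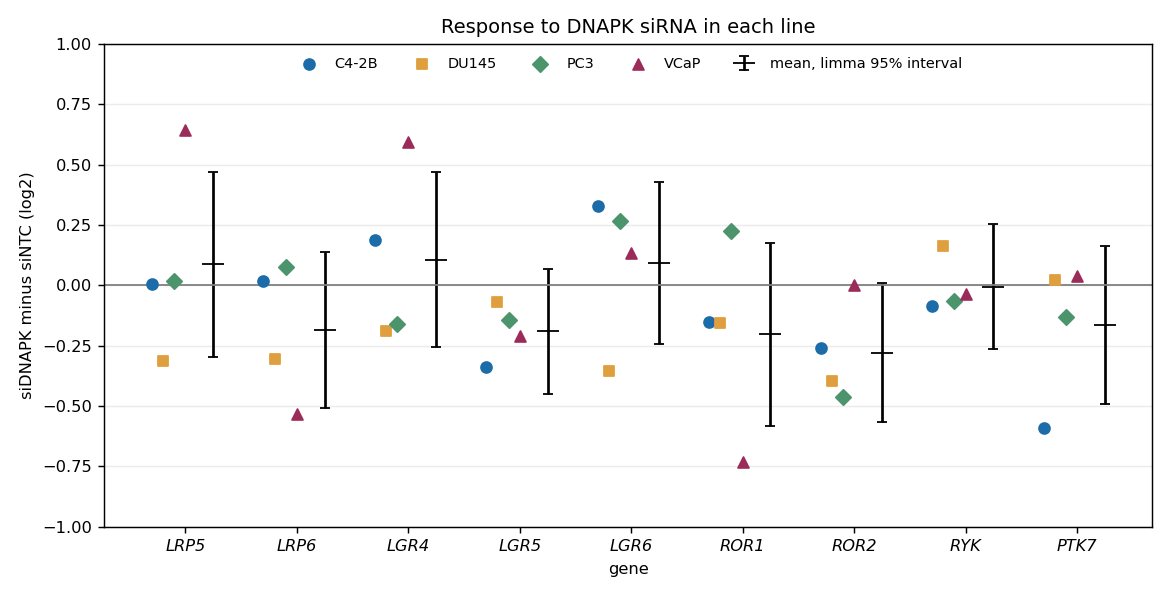
Difference of siDNAPK minus siNTC on the log2 scale (vertical axis) for each gene (horizontal axis), with 1 symbol per cell line and, at the right of each gene, the mean over the 4 lines with its limma 95% interval. Every interval includes 0, the points farthest from 0 are those of ROR1 and LRP5 in VCaP (-0.73 and 0.64), and LGR5 is below 0 in each line.

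The larger differences were mostly those of VCaP. With a threshold of 0.5, chosen after the values were seen, LRP5, LRP6, LGR4 and ROR1 lay past it in VCaP (44.4%, against 23.3% of all genes there), PTK7 in C4-2B (11.1%, against 8.27%), and 0 of 9 members in DU145 and PC3, where 11.4% and 11.3% of all genes did. VCaP had the weakest depletion of PRKDC and also the widest spread of differences over all genes, with an SD of 0.46 against 0.29 in C4-2B and 0.33 in both DU145 and PC3. The part of either in the VCaP values was not tested. When C4-2B and VCaP were set against DU145 and PC3, 0 of 9 members differed in response (limma), as did 0% of all genes, and at an unadjusted p under 0.05 there were 0 members against 3.7% of all genes. The differences ran from -0.48 for ROR1 (95% interval -1.19 to 0.23) to 0.57 for LGR4, and the intervals of the members reached from -1.19 to 1.19. For ROR1 the value was -0.19 without VCaP and -0.77 without C4-2B, and for LGR4 it was 0.36 without VCaP.

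The ligands and partners of these receptors were read from lists chosen with earlier results of these data known. Among R-spondins and the ubiquitin ligases they block, 0 of 5 tested genes were called in either direction by limma. RSPO3, an R-spondin, read 4.90 in the DU145 siNTC array and 3.27 with siDNAPK (difference -1.63). In the other lines it read at most 2.26, below the filter level, so it passed the filter only through DU145. RNF43 had -0.73 and ZNRF3 -0.45 in DU145. Their mean differences over the lines were -0.37 for RSPO3, -0.11 for RNF43 and -0.08 for ZNRF3 (adjusted p = 0.762, 0.876 and 0.901), and each had its lowest difference in DU145. RSPO4, also named by the rule, went the other way in DU145, where it had its highest difference (0.63). Its mean was 0.08, from signals of 2.91 to 3.99.

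Of the 22 tested partners of LRP5 and LRP6 (antagonists, the kinases that phosphorylate their tails, Axin and Dishevelled genes), 0 were called higher and 0 lower, with 10 means above and 12 below 0. SOST (sclerostin, which binds LRP5 and LRP6) had a mean difference of -0.42 (limma, adjusted p = 0.688). WNT1 had -0.31, the feedback gene AXIN2 -0.27 and KREMEN2 -0.25. SOST and AXIN2 were below 0 in each line, where 17.4% of all genes had 1 sign in all lines. SOST read 2.99 to 3.99 and WNT1 3.09 to 3.80, both low signals. In level, 14 of the 22 differed between lines (63.6%, near the 62.6% of all genes). DKK1, the secreted antagonist of LRP5 and LRP6, had the widest span, at 10.96 and 10.90 in PC3, 7.80 and 7.75 in DU145, and 2.70 or lower in C4-2B and VCaP (limma F test, adjusted p = 1.31e-06). The C4-2B and VCaP line means of DKK1, 2.39 and 2.35, lay below the filter level. DKK1 thus passed the filter only through PC3 and DU145 and, being among the 14, had to differ between lines. CAPRIN2, which promotes LRP phosphorylation, had line means of 8.06 in PC3, 7.58 in VCaP, 6.66 in C4-2B and 6.10 in DU145, and DVL1 was highest in PC3 too, at 7.75.

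Of the 19 tested partners of ROR1, ROR2, RYK and PTK7, 0 were called in response, with 12 means above and 7 below 0. FZD2 had a mean of -0.30, MAPK9 (a JNK gene) 0.27, DAAM1, a formin of planar polarity, 0.24, and VANGL2 0.18, and none passed. In level, 13 of 19 (68.4%) differed between lines, against 62.6% of all genes. PRICKLE1, a planar polarity gene, had line means of 6.22 in PC3, 5.66 in DU145, 5.02 in VCaP and 3.17 in C4-2B, the order of ROR1 and PTK7. The share of all genes with this order was not counted, and a link between these genes was not tested. MMP14, a membrane protease known to cleave PTK7, had 6.54 in PC3 and 6.19 in DU145 against 3.17 in VCaP and 2.89 in C4-2B. WNT5A, the ligand of ROR1, was high in PC3 alone, with a line mean of 5.89 against 3.90 or lower.

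Stem cell and feedback genes linked with LGR5 were not called in response either (0 of 10, with 4 means above and 6 below 0). In level, 7 of 10 (70%) differed between lines, against 62.6% of all genes. Among the 7 is SMOC2, with a line mean of 5.53 in VCaP and 2.71 or lower elsewhere. SMOC2 passed the filter only through VCaP and so had to differ between lines, and the share of 70% rests in part on it. CD44 had a mean difference of -0.34 and SOX9 -0.33, both below 0 in each line, and they were named for the size of these means. Their unadjusted p of 0.0243 and 0.0270 (limma) did not pass adjustment. Of all genes, 7.19% had an unadjusted p under 0.05 and 17.4% had 1 sign in all lines. In C4-2B both CD44 arrays lay below the filter level. ASCL2 had 0.31 and SP5 -0.20, from low signals. SOX9 had its highest line mean in PC3 (9.32), as did LGR5, and CD44 too (8.12). TNFRSF19 was highest in C4-2B (8.01) and LEF1 in VCaP (6.77), lines in which LGR5 was low.

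The genes most like each member were sought by Pearson correlation over the 8 arrays, which hold 4 lines, among 7548 genes with a span of line means of at least 1. For LGR5 they were TFF1 (0.997), a secreted trefoil peptide gene, MANSC4 (0.996) and RBP4 (0.993), the gene of the retinol carrier. TFF1 had a line mean of 9.14 in PC3 and 3.20 or lower elsewhere, and RBP4 8.49 against 3.98 or lower. LGR5 was low outside PC3 and passed the filter only through that line. Its correlations are therefore set mainly by 1 line and pick out genes that are high in PC3. For LGR4 they were SGK2 (0.987), SNHG5 (0.983) and TLCD5 (0.981), and for LRP6 DEPDC7 (0.976), GOLM1 (0.975) and HECTD2 (0.975). For ROR1 they were JAK3 (0.987), the tight junction gene CLDN1 (0.984) and PLCE1 (0.982), and CLDN1 went from 2.88 in C4-2B to 7.61 in PC3. For PTK7 they were IFNLR1 (0.983), TMC7 (0.973) and TSPAN5 (0.972). The arrays share 4 lines and a normalisation, and these values describe likeness in these arrays only.

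**Figure D3:**
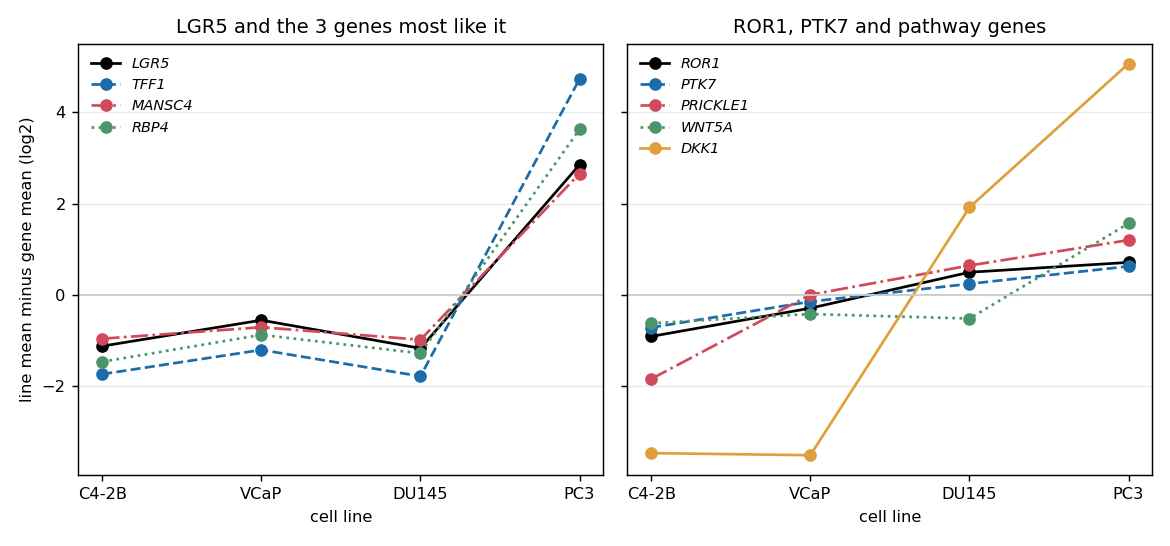
Line means of log2 signal minus the gene's mean over the 4 lines (vertical axis) by cell line (horizontal axis); connecting lines only guide the eye. At left LGR5 with TFF1, MANSC4 and RBP4, all high in PC3; at right ROR1, PTK7 and PRICKLE1, which share the order of the lines, with WNT5A, high in PC3 alone, and DKK1, high in PC3 and DU145.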

How the data were processed

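The authors deposited log2 signals of probe sets for 8 arrays, labelled from 400 ng of total RNA per the labels. Per the submitters' processing notes, oligo and RMA were used, with no version given. The annotation named 23871 of 53617 probe sets with 1 symbol, updated through the Entrez identifier for 22569, and where a gene had several, that with the highest mean was kept. No source used here gives the array's genome build. Genes with a mean above the 25th percentile (16796) were tested with limma 3.58.1 under R 4.3.3, 2-sided, with Benjamini-Hochberg adjustment over all of them and a threshold of 0.05. Pairwise line p-values were adjusted over all genes and 6 contrasts together. The line pairs the arrays by design (correlation of deviations 0.864 to 0.918 within a line, at most 0.0135 between lines). The fit of the response had 3 residual degrees of freedom, 7.55 with the prior. Within a line, 1 array per treatment allows no test.

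The members, lists and tests were chosen with earlier results of these data known. The text names all members, and of each partner list the 4 genes with the largest mean difference and the 3 with the largest span of line means; for each member with a span of at least 1 it names the 3 genes most correlated with it. Other named genes were picked with their values in view. Each fit was first tested on simulated data. Alternatives were the scaling, the filter, the block, the treatment covariate, the choice of probe set, the prior and leaving out each line. Of the listed genes, CSNK1G3, RAC1, CELSR3, TCF7, EPHB2 and PECAM1 were not used here, and some others are not reported here. Promoter windows come from RefSeq (GRCh38.p14), and LRP6 and LGR5 have none printed. The number of arrays limits the precision.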

Additional observations from a re-analysis of the deposited data

Results flagged for a closer look

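LGR5 was singled out because its PC3 signal stood far from those of the other 3 lines. The gene passed the filter only through PC3, and its C4-2B and DU145 signals lay below the filter level. The checks below restate that difference and add no separate support for it. Over the 4 siNTC arrays the gap from PC3 to the next line was 0.831 of the whole range, and over the 4 siDNAPK arrays it was 0.845, both above Dixon's 95% critical value. The 27 sets of 4 values that were checked gave 2 such results, both of this gene. They come from the same lines and are not independent. Chance gives about 1 in 20 checks, so the 2 results do not set chance aside.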

How the results depend on the processing

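The 6 members that differed in level between lines did so under median centring, cyclic loess, no filter and no treatment covariate. Each member has 1 probe set, so that the mean of all probe sets could not change its values. A filter at the 50th percentile (3.92) removed LGR5, LGR6 and ROR2 and left 5 of 6 members called and 22 contrasts, and a trended, robust prior gave 7 members and 27 contrasts, with RYK added (span 0.50, adjusted p = 0.0281). Adjusted p over the alternatives ran from 0.0143 to 0.0393 for LRP5 and from 0.0513 to 0.104 for ROR2. In response, 0 members were called under every alternative run, including the fit with no replicate block, where the paired arrays of a line were treated as separate (0 members). Mean responses that changed sign were those of LRP5 (-0.10) and LGR4 (-0.0551) without VCaP, and of RYK, at 0.0217 without C4-2B, 0.0138 without PC3 and 0.0051 without VCaP. Leaving out lines gave means from -0.10 to 0.22 for LRP5, -0.0551 to 0.21 for LGR4, 0.015 to 0.24 for LGR6, -0.35 to -0.0269 for ROR1 and -0.0621 to 0.0217 for RYK. The response of C4-2B and VCaP minus that of the other lines changed sign for PTK7 without C4-2B (0.0932), for LGR6 (-0.0346) and RYK (0.0011) without DU145, and for LRP6 without PC3 (0.0451) or VCaP (0.13). Leaving out lines gave from -0.54 to 0.0932 for PTK7, -0.0346 to 0.59 for LGR6, -0.23 to 0.0011 for RYK, -0.42 to 0.13 for LRP6, 0.15 to 0.79 for LRP5, 0.36 to 0.77 for LGR4, -0.23 to -0.11 for LGR5, -0.77 to -0.19 for ROR1 and 0.17 to 0.43 for ROR2. Within lines, values near 0 changed sign with the scaling: ROR2 in VCaP (-0.0103), LRP5 in C4-2B (-0.0099) and PTK7 in DU145 (-0.0014) under median centring, and LRP5 in C4-2B (-0.0402) and PC3 (-0.0207), LRP6 in C4-2B (-0.0257) and PTK7 in DU145 (-0.0111) under cyclic loess. The scalings moved the median of all genes by at most 0.04 in a line. Signals near the filter level limit LGR6, ROR2 and, outside PC3, LGR5.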
